A study of Mus musculus with 6 samples.

Results

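NF-YA binding was examined at 60 genes of the Notch, Wnt, TGF-beta and growth factor pathways in cultured mouse muscle stem cells (MuSCs). The members were taken from a list of gene symbols, and a peak belonged to a member when the authors' table of unified NF-YA peaks carried that symbol. Of the 60 members, 18 had at least 1 such peak, and together they held 26 of the 9056 peaks. The other 42 members had no peak annotated to them.

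The series used CUT&RUN, in which micrococcal nuclease fused to protein A is brought by an antibody to the bound protein in permeabilised cells, and the DNA it releases is sequenced. There were 3 NF-YA libraries and 3 libraries with IgG, all from wild-type C57BL/6 MuSCs labelled as activated/proliferating, without any further treatment or allele. The methods describe the MuSCs as sorted, by surface integrin or a Pax7 reporter, and expanded in medium with serum, LIF and bFGF, so they are dividing cells and not the quiescent cells of resting muscle. The values of the 3 NF-YA libraries were used, and the IgG values were not used here. The age of the mice is not in the labels, and binding data contain no marker transcripts, so the labelled cell type was not checked.

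NF-Y is a trimer of NF-YA, NF-YB and NF-YC that binds the CCAAT box, a short promoter element, and NF-YA is the subunit that reads the sequence. Notch receptors are cleaved when a ligand on a neighbouring cell binds, and the freed fragment joins RBPJ and Mastermind proteins to switch on Hes and Hey repressors, a route known for holding MuSCs in quiescence. Wnt ligands bind Frizzled receptors and LRP co-receptors and stabilise beta-catenin, which a complex of APC, Axin and GSK3 otherwise marks for destruction. TGF-beta, activin, BMP and myostatin ligands act through paired receptor kinases that phosphorylate SMAD proteins, and receptor tyrosine kinases for HGF, FGF, IGF, EGF and PDGF drive activation and growth of these cells.

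Genomic sequence is shown first, since the CCAAT box is what NF-Y recognises, for members of each pathway with a box in a peak and an entry in the RefSeq promoter table used further on. Each run is from GRCm38.p6, the assembly behind mm10, and is written 5′ to 3′ on the strand of the gene. Capitals mark CCAAT, or ATTGG where the box lies on the opposite strand. The run for Gsk3b is chr16:38088733-38089000 on the plus strand and ends at the base before the gene start, and the run for Numb is chr12:83921935-83922099 on the minus strand and also ends there. These are the peaks with the highest level in the Wnt and the Notch group.

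Gsk3b: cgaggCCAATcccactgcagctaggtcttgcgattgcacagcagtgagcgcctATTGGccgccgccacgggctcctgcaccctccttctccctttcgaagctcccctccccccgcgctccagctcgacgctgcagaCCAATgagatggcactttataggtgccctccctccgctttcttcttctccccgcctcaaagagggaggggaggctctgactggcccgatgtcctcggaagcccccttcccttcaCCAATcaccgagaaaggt
Numb: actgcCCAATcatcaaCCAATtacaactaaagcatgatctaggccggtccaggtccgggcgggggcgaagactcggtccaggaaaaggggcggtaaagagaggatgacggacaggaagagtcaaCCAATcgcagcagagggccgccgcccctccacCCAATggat

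The Gsk3b run holds 4 boxes, 261, 213, 130 and 16 bp upstream of the transcription start site (TSS) when measured to the middle base of the box. A further 4 boxes of the same peak lie downstream, at 25, 131, 262 and 322 bp. In Numb all 4 boxes of the peak lie on the gene strand, at 158, 147, 39 and 7 bp upstream of the TSS. The next set shows receptors and an inhibitory SMAD, with positions chr1:59481987-59482039 on the plus strand for Fzd7, chr4:47353063-47353174 on the plus strand for Tgfbr1 and chr9:64022995-64023201 on the minus strand for Smad6.

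Fzd7: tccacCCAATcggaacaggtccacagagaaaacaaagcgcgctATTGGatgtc
Tgfbr1: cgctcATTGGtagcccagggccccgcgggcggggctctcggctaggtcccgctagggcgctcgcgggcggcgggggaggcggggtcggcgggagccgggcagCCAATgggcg
Smad6: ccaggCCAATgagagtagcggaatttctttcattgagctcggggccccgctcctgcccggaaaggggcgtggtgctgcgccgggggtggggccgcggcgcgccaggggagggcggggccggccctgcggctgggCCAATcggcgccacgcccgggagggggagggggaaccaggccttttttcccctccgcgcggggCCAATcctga

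The Fzd7 run starts 437 bp and ends 385 bp upstream of the TSS, the Tgfbr1 run spans 159 to 48 bp upstream, and the Smad6 run spans 1142 to 936 bp upstream. The Fzd7 run leaves out the box of the same peak that lies 605 bp upstream. The Smad6 run has 3 boxes, all on the gene strand. Not printed are the boxes of the weak annotated peaks of Axin2, Tgfbr2 and Acvr1 and that of the Smad6 peak over the TSS. Single boxes in 29 bases of sequence are shown for 4 further members, in each of which it is the only box in the peak. The positions are chr11:50292393-50292421 for Maml1, chr17:32161030-32161058 in an intron of Notch3, chr5:4758111-4758139 for Fzd1 and chr1:186703119-186703147 in an intron of Tgfb2, all on the minus strand.

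Maml1: gggtttcctttgATTGGctagagcttcgg
Notch3: gtccagtttctgATTGGctcaggcttatg
Fzd1: gcgggtgctgcgATTGGgcgacggtccct
Tgfb2: cgtaaacttctcATTGGctgctctgttct

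The last set comes from peaks that the table does not give to the member but that lie in or beside it. They are chr7:68129127-68129353 on the plus strand in an intron of Igf1r, chr2:58532373-58532510 on the minus strand in an intron of Acvr1, and chr7:89404293-89404321 on the plus strand just upstream of Fzd4. The Igf1r peak is the strongest peak inside any growth factor member.

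Igf1r: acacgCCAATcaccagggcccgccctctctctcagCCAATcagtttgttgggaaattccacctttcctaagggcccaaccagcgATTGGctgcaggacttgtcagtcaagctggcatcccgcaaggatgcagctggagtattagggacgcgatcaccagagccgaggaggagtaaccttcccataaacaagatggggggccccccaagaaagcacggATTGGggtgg
Acvr1: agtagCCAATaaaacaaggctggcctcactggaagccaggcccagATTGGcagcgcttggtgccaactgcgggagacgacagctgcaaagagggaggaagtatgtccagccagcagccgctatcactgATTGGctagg
Fzd4: gggggggctttcATTGGacagtcgcgttg

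Peaks were found at 18 of the 60 members (95% Wilson interval of the share 19.9 to 42.5%), against 18.9% of the 22028 protein-coding genes in GENCODE M21. The interval of the members covers counting error only and its lower end lies just above the share over all genes. Because the members were chosen with earlier results of these data known, this margin is not evidence of an excess. By pathway, 5 of 13 Notch members, 6 of 16 Wnt members, 7 of 20 TGF-beta members and 0 of 11 growth factor members had a peak. The intervals were 17.7 to 64.5% for Notch, 18.5 to 61.4% for Wnt and 18.1 to 56.7% for TGF-beta, and each contained the share over all genes. The count of 0 growth factor genes allowed a share of up to 25.9%, so a share equal to that of all genes was not detectable as different at this number of genes.

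**Figure D1:**
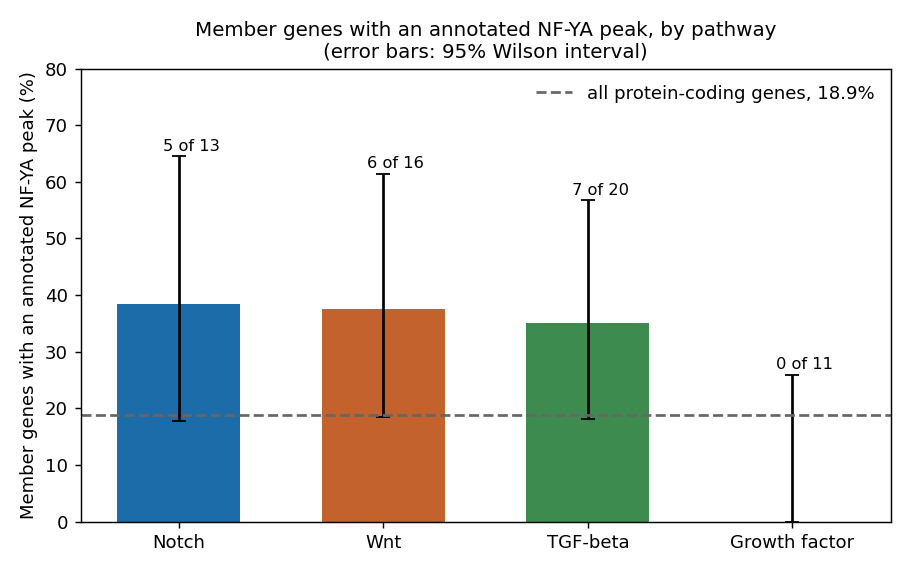
The bars give the percentage of member genes in each pathway with an annotated NF-YA peak, with 95% Wilson intervals as error bars and the 18.9% of all protein-coding genes as a dashed line. Notch, Wnt and TGF-beta lie close together, with Notch highest at 38.5%, growth factor genes lie at 0, and all 4 intervals reach the dashed line.

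The members were also sorted by role, beside the 18.9% of all protein-coding genes with a peak. A peak was annotated to 1 of 14 ligand genes, the exception being Tgfb2. It was annotated to 8 of 23 genes for receptors and co-receptors and to 9 of 22 genes for proteins inside the cell. The intervals of these shares overlapped, and those of ligands and receptors contained the share over all genes, at 1.27 to 31.5% for ligands, 18.8 to 55.1% for receptors and 23.3 to 61.3% for proteins inside the cell. These roles were assigned with the peaks known, so the counts are a description, and the differences between roles were not tested.

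Levels are given as normalised reads per peak, that is reads in the peak divided by the size factor of the library and rounded by the authors to whole numbers. They are not corrected for peak length, and 1 read was worth about 0.664, 1.48 and 1.02 normalised reads in the 3 libraries. About 481324, 226924 and 334618 reads lay in peaks in replicates 1, 2 and 3, so replicate 2 had the fewest reads in peaks and its low values are the least certain. This order is not that of total depth. The study lists the most uniquely mapped reads for replicate 2, and the fewest for replicate 1. It also lists the most called peaks for replicate 1. The study's methods state that replicate 1 was sequenced with shorter reads than the other libraries, so read length and replicate 1 cannot be told apart. The median member peak had 15, 18 and 19 normalised reads in the 3 libraries, a mean of 17.3 ± 2.08 (SD, n = 3), and the median over the 6191 gene-annotated peaks was 18, 19 and 19. The median over the members thus lay at or just under the median of all gene-annotated peaks in replicates 2 and 3 and was lower in replicate 1. On the log2 scale the median difference of replicate 1 from the mean of replicates 2 and 3 was -0.08 over the 26 member peaks. It was 0 over gene-annotated peaks. By pathway it was -0.10 over the Notch peaks, 0.04 over the Wnt peaks and -0.22 over the 10 TGF-beta peaks. Members ranged from 2.67 to 627 in their mean of 3 libraries.

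**Figure D2:**
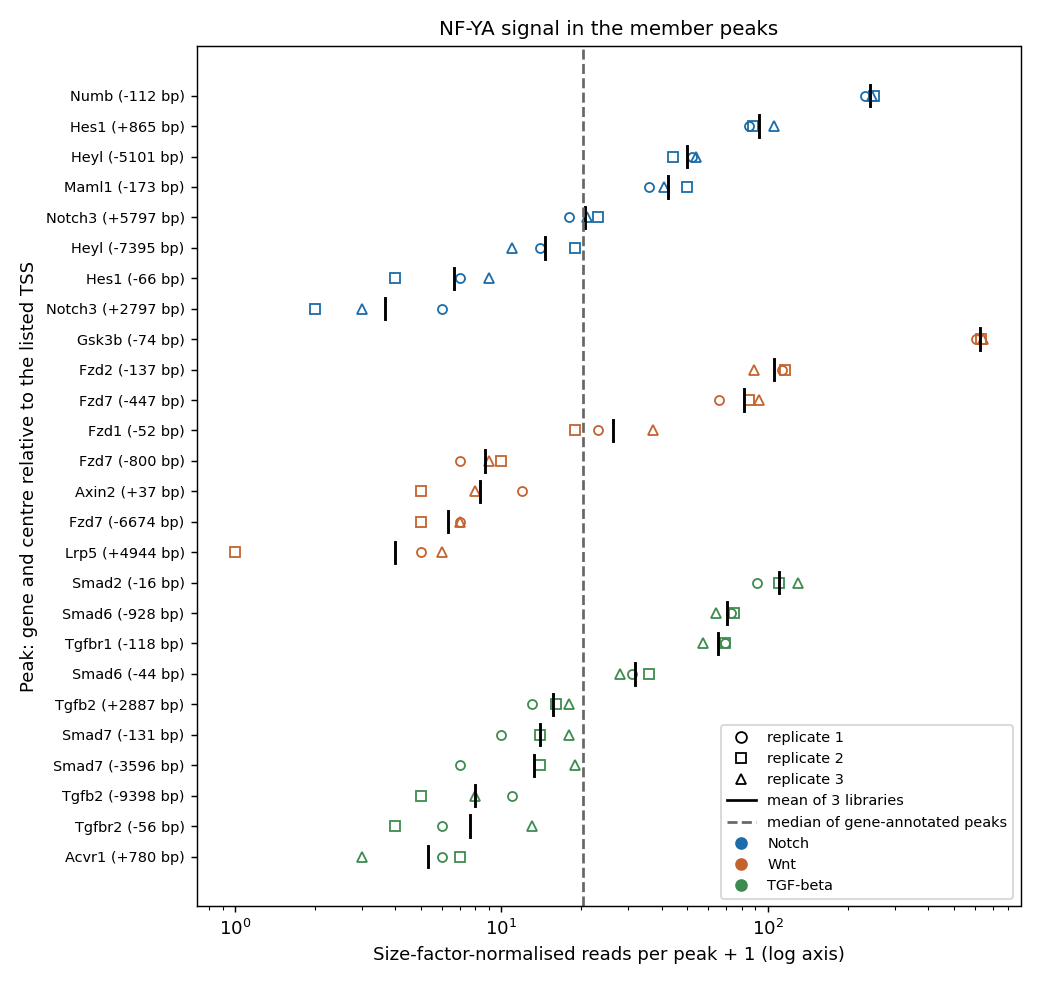
Each row is 1 of the 26 member peaks with its position relative to the TSS, and symbols give the normalised reads plus 1 in the 3 libraries on a log axis, with a bar at the mean. Gsk3b at 627 and Numb at 242 stand to the right of all other peaks, and 13 of 26 peaks lie above the dashed median of gene-annotated peaks.

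In the Notch group the highest levels were at Numb, which encodes an endocytic adaptor that antagonises Notch and is inherited unequally by daughter cells. The Numb peak, chr12:83921795-83922298, spanned the TSS and had 232, 250 and 245 normalised reads in replicates 1, 2 and 3. Its mean of 242 ± 9.29 (SD, n = 3) ranked 167 among the 9056 peaks, and its libraries did not overlap with those of any other Notch peak.

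Hes1, the repressor that Notch induces directly, had 2 peaks. The stronger, chr16:30065055-30065444, was centred 865 bp downstream of the listed TSS in an intron and 91 bp from the start of another annotated Hes1 transcript. It had 84, 87 and 105 normalised reads (mean 92 ± 11.4), with replicate 3 highest. The weaker peak, 66 bp upstream of the listed TSS, had 6, 3 and 8. The peak nearest to the listed start was lower in all 3 libraries, with a difference of -3.87 ± 0.51 on the log2(value + 1) scale, and the 2 peaks did not overlap in level. An exact two-sided permutation of signs over the 3 libraries gave p = 0.25, the smallest p that 3 libraries allow, and the same holds for each comparison of 2 peaks of 1 gene in which all libraries agreed in direction. Only the stronger Hes1 peak held CCAAT boxes, 3 in number, and 1 of them lay 5 bp from the peak centre.

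Heyl, a Notch-induced repressor of the Hey family, had no peak near its TSS. Its peaks were 5101 bp upstream, with 51, 43 and 53 normalised reads (mean 49.0 ± 5.29), and 7395 bp upstream, with 13, 18 and 10 (mean 13.7 ± 4.04). The nearer one was higher in all 3 libraries, by 1.80 ± 0.55 on the log2 scale. Neither of these peaks contained a CCAAT box.

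Maml1, the Mastermind co-activator of the Notch complex, had 1 peak over its TSS with 35, 49 and 40 normalised reads (mean 41.3 ± 7.10). Its single box is the one printed above, 96 bp upstream of the TSS. Notch3, a receptor expressed in MuSCs, had peaks only inside the gene. The one at 5797 bp, with the printed box 11 bp from its centre, had 17, 22 and 20 normalised reads (mean 19.7 ± 2.52). A second at 2797 bp had 5, 1 and 2, lower in all 3 libraries with a difference of -2.64 ± 0.98 on the log2 scale, and in replicates 2 and 3 it did not exceed a floor of 3 reads.

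No peak was annotated to the receptors Notch1 and Notch2, to the ligands Jag1, Jag2, Dll1 and Dll4, to Rbpj, which encodes the DNA-binding partner of cleaved Notch, or to Hey1. The Notch members with peaks were 1 receptor, the antagonist Numb, a co-activator and 2 repressors.

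In the Wnt group the level at Gsk3b, which encodes a kinase that marks beta-catenin for destruction, exceeded that of every other member. The Gsk3b peak, chr16:38088386-38089468, was 1083 bp long and spanned the TSS. It had 607, 631 and 643 normalised reads, and its mean of 627 ± 18.3 (SD, n = 3) ranked 10 among the 9056 peaks. Divided by length it still led the members, with 579 normalised reads per kb against 481 for Numb. Although the peak held 8 CCAAT boxes, none lay within 50 bp of its centre, and the nearest were 56 and 58 bp away.

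Frizzled receptors made up 3 of the 6 Wnt members with a peak. Fzd2 had a peak over its TSS with 112, 115 and 88 normalised reads (mean 105 ± 14.8) and 3 CCAAT boxes. Fzd7, which is known as the receptor for Wnt7a in MuSCs, had 3 peaks. The highest, 447 bp upstream, had 65, 84 and 92 normalised reads (mean 80.3 ± 13.9), while those 800 and 6674 bp upstream had 6, 9 and 8, and 6, 4 and 6.

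The peak of Fzd7 nearest to the TSS was higher than the others in all 3 libraries, by 3.23 ± 0.14 and 3.69 ± 0.43 on the log2 scale. It was also the only one of the 3 with CCAAT. Fzd1 had a peak over its TSS with 22, 18 and 36 normalised reads (mean 25.3 ± 9.45), in which replicate 3 stood above the other libraries.

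Axin2, a scaffold of the destruction complex and a widely used Wnt target gene, had a weak peak centred 37 bp downstream of the TSS in the 5′ UTR, with 11, 4 and 7 normalised reads. Lrp5, a Wnt co-receptor, had an intron peak with 4, 0 and 5, the lowest of the strongest peaks. In replicate 2 both were under the floor of 3 reads, which corresponds to 4.43 normalised reads there. The ligands Wnt4 and Wnt5a, the receptors Fzd4 and Lrp6, the destruction complex genes Axin1 and Apc, Ctnnb1, which encodes beta-catenin, and its nuclear partners Tcf7l1, Tcf7l2 and Lef1 had no annotated peak.

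In the TGF-beta group, peaks were at the ligand Tgfb2, at 3 receptors and at 3 SMAD genes. Among the receptors, Tgfbr1, the type I receptor for TGF-beta, had a peak over its TSS with 68, 68 and 56 normalised reads (mean 64.0 ± 6.93). Tgfbr2, its type II partner, had 5, 3 and 12 in a peak at the same kind of position. The levels of these partners did not overlap.

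Acvr1, a type I receptor for BMP and activin ligands, had 5, 6 and 2 normalised reads in a peak 780 bp downstream of its listed TSS and 449 bp from another of its transcript starts. This peak also lies within 1000 bp of a start of Upp2, so it cannot be assigned to either gene by position. Tgfb2 had an intron peak at 2887 bp, 1231 bp from another Tgfb2 transcript start, with 12, 15 and 17 normalised reads (mean 14.7 ± 2.52). A peak 9398 bp upstream had 10, 4 and 7, and it was lower in all 3 libraries, by a mean of 1.03 with an SD of 0.73 on the log2 scale that reflects a small difference in replicate 1. Divided by peak length, the Tgfb2 peaks no longer kept this direction in every library.

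Smad2, a SMAD activated by TGF-beta and activin receptors, had a peak spanning the TSS with 90, 109 and 129 normalised reads (mean 109 ± 19.5). It was the highest level in the TGF-beta group, and replicate 1 was the lowest library. Divided by its length of 764 bp it no longer led the group. It had 143 normalised reads per kb, against 200 for Tgfbr1 and 165.5 for the upstream Smad6 peak.

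Both inhibitory SMAD genes had annotated peaks, those of Smad7 below the median level of gene-annotated peaks. Smad6, which mainly restrains BMP signals, had a peak over the TSS with 30, 35 and 27 normalised reads (mean 30.7 ± 4.04) and a second one 928 bp upstream with 72, 74 and 63 (mean 69.7 ± 5.86). The upstream peak was higher in all 3 libraries, with a difference of the TSS peak from it of -1.16 ± 0.09 on the log2 scale, and it held the 3 boxes printed above, against 1 box in the peak over the TSS. Smad7, which blocks TGF-beta receptors, had 9, 13 and 17 normalised reads 131 bp upstream (mean 13.0 ± 4.0) and 6, 13 and 18 at 3596 bp upstream (mean 12.3 ± 6.03). These 2 peaks did not differ beyond the spread, with a log2 difference of 0.15 ± 0.32 (exact permutation of signs, two-sided p = 1.0), and the nearer one lies within 1000 bp of a start of Gm20544.

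No annotated peak was found at the ligands Tgfb1, Tgfb3, Bmp4 and Mstn, which encodes myostatin. The same was true of the receptors Acvr2a, Acvr2b, Bmpr1a and Bmpr2, of the signal-carrying SMADs Smad1, Smad3, Smad4 and Smad5, and of Fst, which encodes follistatin, an inhibitor of activins and myostatin.

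The 18 strongest peaks, 1 for each member, fell into an order in which few neighbours could be separated. From the top it read Gsk3b, Numb, Smad2, Fzd2, Hes1, Fzd7, Smad6, Tgfbr1, Heyl, Maml1, Fzd1, Notch3, Tgfb2, Smad7, Axin2, Tgfbr2, Acvr1 and Lrp5. Of the 17 neighbouring pairs, 3 had libraries that did not overlap, namely Gsk3b and Numb, Numb and Smad2, and Tgfbr1 and Heyl, and the other 14 pairs overlapped. The strongest peak was above the median of single gene-annotated peaks, 19.3, in 12 of 60 members, against 11.5% of protein-coding genes. Gsk3b and Numb exceeded the 90th percentile, 113, which makes 2 of 60 members, against 2.72% of protein-coding genes, a share near the background. Of the 26 member peaks, 5 (19.2%) were in the top 10% of all peaks, against 13.8% of gene-annotated peaks.

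Some members with a peak had more than 1. This was so for 7 of 18 members (38.9%, interval 20.3 to 61.4%), against 18.3% of the 5024 genes with an annotated peak. Those genes include noncoding genes, while the members are all protein-coding. At Notch3, Hes1 and Tgfb2 the second peak did not exceed 3 reads in all libraries. The share above this floor was not computed over all genes. The 8 comparisons of the peak nearest to the TSS with a further peak gave no common direction. The nearest was higher in all 3 libraries in 4 comparisons, at Heyl, Tgfb2 and both of Fzd7, the further was higher in 3, at Notch3, Hes1 and Smad6, and Smad7 was mixed.

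**Figure D3:**
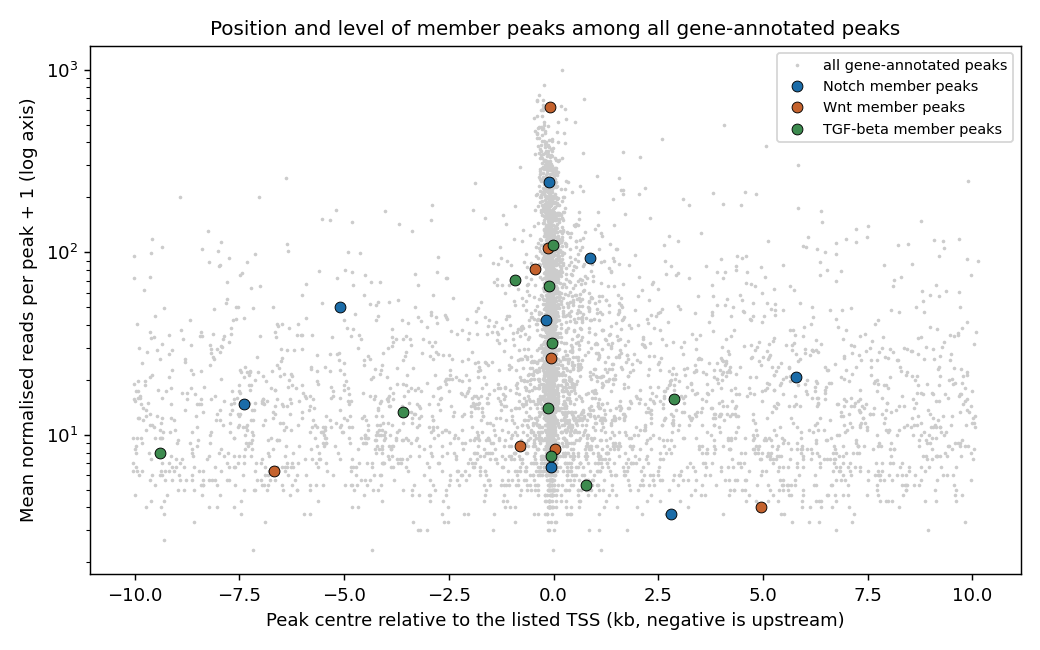
The mean normalised reads plus 1 of each peak, on a log axis, are plotted against the distance of the peak centre from the listed TSS in kb, with all 6191 gene-annotated peaks in grey and the member peaks in colour. Of the member peaks, 17 of 26 lie within 1000 bp of the TSS, where levels reach 627, and the 9 beyond 1000 bp stay at 49.0 or lower.

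By position, 17 of the 26 peaks (65.4%, interval 46.2 to 80.6%) were centred within 1000 bp of the TSS, against 60.5% of gene-annotated peaks. The TSS itself lay inside 10 of 26 peaks (38.5%), against 37.0%. At the centre of the peak the annotation gave sequence upstream of the gene for 19 peaks, an intron for 6 and a 5′ UTR for 1. The centre lay upstream of the listed TSS in 73.1% of member peaks (interval 53.9 to 86.3%) and in 61.9% of gene-annotated peaks. The median level was 41.3 normalised reads for the 17 peaks within 1000 bp and 12.3 for the 9 others, and the medians over all gene-annotated peaks were 29.0 and 12.0.

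Of the 26 member peaks, 14 held CCAAT on either strand within 50 bp of the centre (53.8%, interval 35.5 to 71.2%), against 56.8% of gene-annotated peaks. In windows of the same length 1000 bp to the left and to the right, 4 and 1 of 26 held the box, against 11.9% and 12.6% of the flanks of gene-annotated peaks. Anywhere in the peak it was present in 17 of 26 (65.4%, against 69.4%), and 10 of 26 peaks (38.5%, against 34.5%) held at least 2. Member peaks with a box within 50 bp of the centre had a median of 44.7 normalised reads and those without had 10.3. The corresponding values over gene-annotated peaks were 28.7 and 12.3, so the members followed the same order.

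The member peaks held 40 boxes, and 36 of them, those outside Smad2 and Smad7, were placed relative to the gene. Of these, 19 lay on the gene strand and 17 on the opposite strand, and 32 lay within 1000 bp of the TSS. A match to the longer NF-Y consensus, in which CCAAT has 2 purines before it and then C or G and a purine after it, was present in 17 of the 36 boxes. Within 50 bp of the centre such a match was found in 5 of 26 peaks (19.2%), against 28.6% of gene-annotated peaks.

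**Figure D4:**
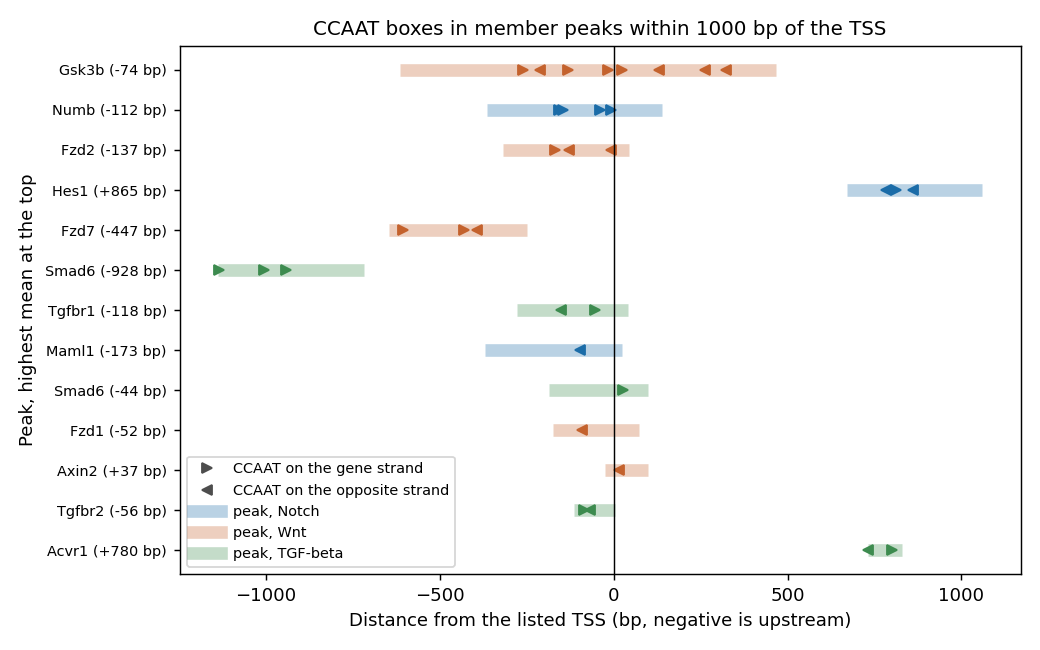
Bars show the extent of member peaks within 1000 bp of the TSS that hold a CCAAT box, ordered by mean level, with the distance from the TSS in bp on the x axis, and triangles show each box and its strand. Gsk3b has 8 boxes on both sides of the TSS, Numb has 4 on the gene strand, and the boxes of Hes1 and of the upstream Smad6 peak lie away from the TSS.

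Motifs of other factors, all longer than CCAAT, were less common than CCAAT within 50 bp of the centre, searched on both strands. A longer motif has fewer matches by its length alone, so each share is to be read beside that of gene-annotated peaks. The GC box GGGCGG was found in 4 of 26 peaks (15.4%, against 28.5% of gene-annotated peaks). TGGGAA, the core read by RBPJ, was found in 2 (against 8.92%), at the stronger Hes1 peak and at the Heyl peak 7395 bp upstream. CTTTGA, the core of TCF and LEF sites, was found in 3 (against 4.2%), at Axin2, Gsk3b and the Fzd7 peak 6674 bp upstream. The SMAD element GTCTAG was found in 2 (against 3.3%), at the Tgfb2 peak 9398 bp upstream and at the Smad6 peak over the TSS. The AP-1 site TGAGTCA was found in 1 (against 6.51%), again the Fzd7 peak 6674 bp upstream. These are matches of letters and not measured binding by those factors.

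Promoters from RefSeq on GRCm38.p6, 300 bp each and mostly upstream of the start, were matched by symbol for 44 of the 60 members. No entry was matched for Hes1, Hey1, Heyl, Wnt5a, Fzd2, Lrp5, Lrp6, Axin1, Apc, Tgfb3, Smad2, Smad4, Smad7, Fst, Fgfr1 and Pdgfrb. CCAAT occurred in 9 of the 10 member promoters that overlapped a peak and in 14 of the 50 that overlapped none (28.0%). Over all promoters in the table these shares were 78.3% and 32.4%, and 37.4% of all promoters held the letters.

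Some members without an annotated peak did have one by position. Of the 42, 6 had a peak within 10000 bp of some annotated transcript start (Jag2, Fzd4, Apc, Smad3, Fst and Met) and 9 had a peak centred inside the gene (Notch2, Apc, Tcf7l1, Tcf7l2, Smad3, Met, Igf1r, Egfr and Pdgfrb). Together these were 12 members, and 30 had neither. Counting every transcript start, 24 of 60 members (interval 28.6 to 52.6%) had a peak within 10000 bp, against 27.6% of protein-coding genes. With peaks in the gene body added, 30 of 60 members (interval 37.7 to 62.3%) had one, against 30.2%. A longer gene has more room for a peak in its body, and neither share was adjusted for gene length.

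At Fzd4, a Frizzled receptor, the peak was centred 91 bp upstream of the gene start but carried the name of the neighbouring Tmem135. It had 29, 21 and 30 normalised reads (mean 26.7 ± 4.93) and contained the box printed above. A peak 8238 bp upstream of the Notch ligand gene Jag2 was named for Nudt14 and had 30, 19 and 22 (mean 23.7 ± 5.69), with no CCAAT.

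Growth factor members had peaks only inside introns, at Met (3 peaks), Igf1r (4), Egfr (1) and Pdgfrb (1). The strongest, chr7:68129019-68129368 in Igf1r, the receptor for IGF1, had 92, 84 and 95 normalised reads. Its mean of 90.3 ± 5.69 (SD, n = 3) ranked 912 among all peaks, similar to the stronger Hes1 peak, although it lay 19397 bp from the nearest Igf1r transcript start and carried no gene name. The other 8 peaks had means from 3.0 to 18, the highest being an intron peak of Met, the HGF receptor, with 16, 22 and 16.

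Intron peaks without the member's name also lay in members that had an annotated peak. One was a second site in Acvr1, chr2:58532264-58532584, with 31, 53 and 46 normalised reads (mean 43.3 ± 11.2) and 3 boxes, which was higher in every library than the Acvr1 peak named in the table. An intron peak of Lrp5, 29311 bp from the nearest Lrp5 transcript start, had 7, 12 and 27 (mean 15.3 ± 10.4) and 5 boxes, and it too was higher in every library than the named Lrp5 peak. In Apc, which encodes a scaffold of the destruction complex, a peak 52 bp from one of its transcript starts had 11, 18 and 19 (mean 16.0 ± 4.36) and 2 boxes.

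The spread between replicates of the member peaks lay on both sides of what counting alone gives. It was larger in 15 of the 26 peaks, Smad2, Fzd1 and Tgfbr2 among them, against 54.5% of gene-annotated peaks. The median coefficient of variation over the 3 libraries was 18.9%, against 25.0% from counting alone, and 22.7% against 23.3% over gene-annotated peaks. An SD from 3 values lies below its expected size more often than above it. The lower medians therefore do not show a spread smaller than counting gives. Of the 26 peaks, 18 (69.2%) exceeded 3 reads in all 3 libraries, against 84.8% of gene-annotated peaks. The 8 that did not were weak peaks of Notch3, Hes1, Fzd7, Lrp5, Axin2, Tgfb2, Tgfbr2 and Acvr1, and for Lrp5, Axin2, Tgfbr2 and Acvr1 no other annotated peak existed. At the gene level, 14 of 60 members (23.3%, interval 14.4 to 35.4%) had an annotated peak above this floor in all libraries. This interval contained the 17.0% of protein-coding genes.

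Other genes of the 4 pathways, from wider lists, carried a peak in 48 of 203 cases (23.6%), between the members and the 18.9% of all protein-coding genes. The counts were 13 of 35 for Notch, 14 of 63 for Wnt, 10 of 45 for TGF-beta and 11 of 60 for growth factors. Levels above the 90th percentile were reached by 3 of them, against 2.72% of protein-coding genes. These were Shc1, an adaptor of receptor tyrosine kinases, with 285, 325 and 347 normalised reads, Cblb, a ubiquitin ligase for such receptors, with 117, 145 and 129, and Hes6, a Hes family gene, with 119, 127 and 137. The Shc1 peak ranked 85 among all peaks. Within 1000 bp of the TSS, 29 of the 203 genes in these wider lists had a peak, against 14.7% of protein-coding genes. By list this was 9 of 35 Notch, 11 of 63 Wnt, 5 of 45 TGF-beta and 4 of 60 growth factor genes.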

How the data were processed

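The deposited values of 3 NF-YA libraries have the unit score, since the authors divided reads per peak by a size factor (DESeq2 1.30.0) and rounded them to whole numbers. Per the methods, the authors trimmed reads (Trimmomatic 0.39), aligned them to mm10 (STAR 2.7.9a), removed duplicates (Picard 2.25.5), called peaks in each NF-YA library against IgG with MACS2, unified them, counted reads with featureCounts and named a peak for the nearest gene with a TSS within 10000 bp. The deposited table also lists the distance of each peak centre from the TSS. Peaks were selected on the libraries whose levels are given, so the levels are not an independent test.

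The members, pathway lists and tests were chosen with earlier results of these data known. Gene models were GENCODE M21, whose gene starts and ends matched 6141 of 6191 gene-annotated peaks. The worth of 1 read was estimated by maximum likelihood from the whole numbers present, with a procedure tested on simulated data, as were the box search and the sign test. Floors of 3 reads and Wilson intervals (SciPy 1.17.1) cover counting error only. Peaks of the same gene were compared on log2(value + 1) within each library. Named were members whose strongest peak exceeded the median of gene-annotated peaks and those with several peaks, and the rest with their values. Sequence runs over 30 bases, the roles and the peaks found by position, with Fzd4, Jag2, Igf1r, Acvr1, Lrp5 and Apc, were chosen after values were seen. The labels number the libraries 1 to 3 and the methods call them biological replicates.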

Additional observations from a re-analysis of the deposited data

How the results depend on the processing

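No paired analysis was possible between the NF-YA and IgG groups because the table holds 1 group, the NF-YA libraries. The planned comparison with IgG was not run for the same reason. The differences between 2 peaks of 1 gene were taken within each library and do not involve IgG. Of 75 alternative values, 61 stayed within the spread or near the main count, 14 moved, and 0 of the called values changed direction. Tying peaks to members by name, any transcript start or gene body, an alternative chosen after seeing the data, raised the members with a peak from 18 to 30. The median level of member peaks was 84.9 per kb of peak, 49.0 with a mean of at least 10 and 45.2 for the strongest peak per member. It was 16.5 to 18.5 with 1 library left out. The share near the TSS was 80.8% within 5000 bp, given without that of gene-annotated peaks. The share with the longer consensus was 19.2%, against 28.6% of gene-annotated peaks. The median coefficient of variation was 14.1% for peaks with a mean of at least 10 and 16.9% with total reads in peaks as library size, and 18.1 to 19.3% with 1 library left out. Per kb of peak, 11 of the 18 members kept their place in the order, against 14 to 16 with 1 library left out, and the nearest peak was higher in all libraries in 4 of 8 comparisons with any 1 library left out and in 3 per kb, where Tgfb2 was lost. The Smad7 difference, which was not called, turned sign to -0.04 without replicate 1 and to -0.08 per kb. Per kb the other differences between 2 peaks shrank and kept their direction, to 2.19 and 1.85 at Fzd7, -2.46 at Hes1, -1.92 at Notch3, 0.84 at Tgfb2, 0.64 at Heyl and -0.63 at Smad6. The number of reads in a peak limits values under the floor of 3 reads, which was 1.99, 4.43 and 3.06 normalised reads in replicates 1, 2 and 3.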
